A study of Sus scrofa with 9 samples.

Results

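NF-kB is a family of transcription factors that cells hold ready in the cytoplasm and send to the nucleus on signals of infection, injury or inflammatory cytokines. Its subunits act as dimers and are held back by IkB proteins, which a kinase complex marks for destruction. Among the first genes that NF-kB switches on are its own inhibitors and deubiquitinating enzymes, so the response limits itself, and in muscle it is best known from inflammation and wasting. The 10 genes described here were taken by symbol from a count table of 27339 pig genes. They are 4 subunit genes (NFKB1, NFKB2, RELA, RELB), 3 genes of feedback inhibitors (NFKBIA, NFKBIE, TNFAIP3), the survival and signalling gene BIRC3 and 2 inducible effector genes (ACOD1, VCAM1). All 10 were found and all 10 were among the 15956 genes with enough counts to be tested.

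The data are 9 libraries of messenger RNA from primary Gottingen pig myoblasts (passages 7 to 9), all exposed to doxycycline at 1 µg/mL for the 16 h before harvest. In 3 libraries the cells carried an inducible human DUX4, a double homeobox factor of the early embryo whose misexpression in muscle underlies facioscapulohumeral dystrophy, in 3 an inducible pig DUXC and in 3 an inducible GFP as the control. The doxycycline and the culture medium were common to all 3 groups, so neither differs between them. Nothing in the labels tells separate cultures or animals apart within a group, so p-values cover the spread of these libraries alone, and that spread may be technical. The transgenes' own transcripts were not analysed here, so the groups rest on the labels. Total counts were 36580573 to 44420895 per library, and a level is a normalised read count per gene (CPM, scaled to the library total with TMM factors), which can be compared between groups for a gene but not between genes, as they are not divided by transcript length.

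The pig factor raised most of these genes, and the human factor raised most of them by less. With DUXC 9 of the 10 were higher than with GFP and RELA was lower, with 8 higher at least 2-fold. Over all tested genes, 82.5% passed with DUXC, 40.2% as higher, 42.3% as lower and 21.3% as higher at least 2-fold. With DUX4 8 were higher and BIRC3 and VCAM1 were lower, where 64.8% of all tested genes passed. The 8 include ACOD1, which met the filter on low counts only through the DUXC libraries and could not be tested on the GFP and DUX4 libraries alone. These counts stand against 32.9% higher and 31.9% lower over all tested genes, and TNFAIP3 and, with the same limit, ACOD1 were higher at least 2-fold, against 10.5% of all tested genes. On the log2 scale the 10 genes had a median change of 1.37 with DUXC and 0.57 with DUX4, also with ACOD1 at its lower bound, where all tested genes had -0.03 and 0.00. The 2 comparisons share the GFP libraries. In the direct comparison 8 of the 10 were lower with DUX4 than with DUXC, RELA was higher and NFKBIE did not pass. Of all tested genes 82.4% passed there, 41.6% as lower and 40.8% as higher. Of the 10, 6 were lower with DUX4 at least 2-fold, against 20.7% of all tested genes. The libraries of the compared groups did not overlap in 9 of the 10 genes for DUX4 and GFP, in 10 for DUXC and GFP and in 9 for DUX4 and DUXC, where 67%, 83.5% and 83% of all tested genes had no overlap, so separation of the groups was common in these data.

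**Figure D1:**
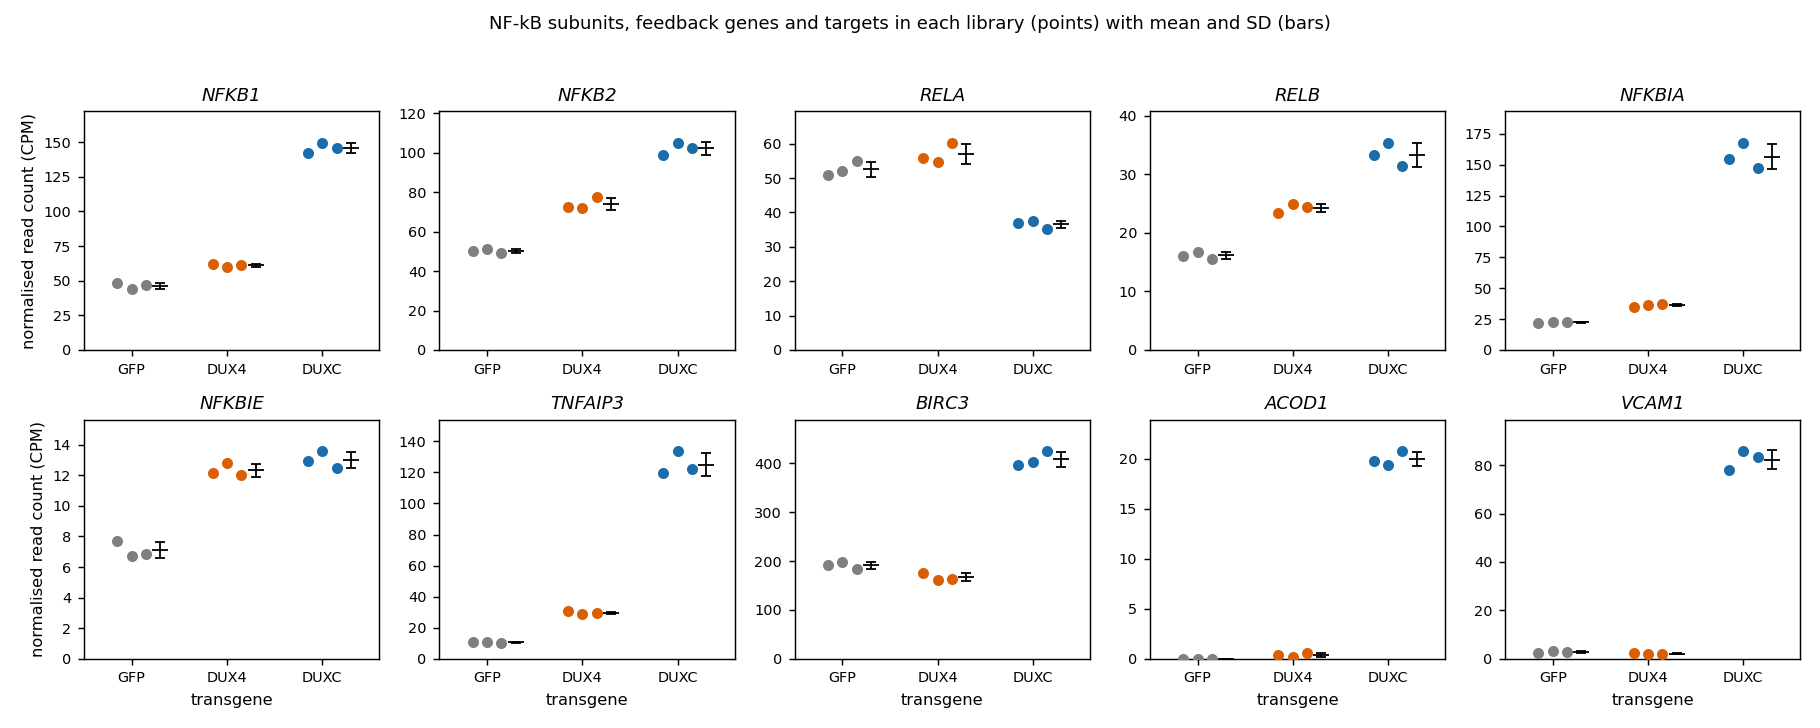
Normalised read counts (CPM, linear axes from 0) of the 10 genes in each of the 9 libraries, grouped by transgene, with points for libraries and bars for the mean and SD of 3 libraries. The DUXC libraries lie above all others for 8 genes, share their range with DUX4 for NFKBIE and lie below all others for RELA.

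NFKB1 encodes the precursor of a DNA-binding subunit that has no activation domain of its own and usually pairs with RELA. It lies on chromosome 8 (118391010 to 118478927, Sscrofa11.1). Its levels were 48.2, 43.7 and 47.1 CPM in the GFP libraries, 62.1, 59.8 and 61.2 CPM with DUX4 and 142, 149.7 and 146 CPM with DUXC. The 3 groups did not overlap, with GFP lowest and DUXC highest. The log2 fold change against GFP was 0.40 ± 0.038 (SE) with DUX4 and 1.65 ± 0.037 with DUXC, and the direct difference between the factors was -1.26 ± 0.036.

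NFKB2, the precursor gene of the alternative pathway (chromosome 14, 113406412 to 113414177), and RELB, which encodes the usual partner of its product (chromosome 6, 51444670 to 51480350), moved in the same order. For NFKB2 the levels were 50.4, 51.4 and 49.2 CPM with GFP, 72.6, 72.3 and 77.4 CPM with DUX4 and 98.9, 105 and 103 CPM with DUXC. For RELB they were 16.1, 16.8 and 15.5 CPM with GFP, 23.5, 24.9 and 24.4 CPM with DUX4 and 33.3, 35.5 and 31.4 CPM with DUXC. In both genes every DUX4 library lay above every GFP library and every DUXC library above every DUX4 library. The log2 fold changes were 0.56 ± 0.037 (SE) and 1.02 ± 0.037 for NFKB2 with DUX4 and DUXC. Those of RELB were 0.59 ± 0.056 and 1.05 ± 0.054. The factors differed from each other by -0.47 ± 0.036 in NFKB2 and by -0.46 ± 0.051 in RELB, as log2 of DUX4 over DUXC. A long non-coding RNA gene of RefSeq overlaps each of them, with group means of at most 0.565 CPM (LOC106506113, at NFKB2) and 0.0932 CPM (LOC110261003, at RELB).

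RELA, the gene of the main activating subunit (chromosome 2, 6594869 to 6602684), went the other way with DUXC. Its levels were 50.8, 52.1 and 55.0 CPM with GFP, 56.0, 54.6 and 60.3 CPM with DUX4 and 36.9, 37.4 and 35.3 CPM with DUXC. The DUXC libraries lay below all 6 others, and the GFP and DUX4 libraries overlapped. With DUXC it fell by 0.53 on the log2 scale (SE 0.043), and DUX4 was above DUXC by 0.64 ± 0.043. The difference between DUX4 and GFP was small, at 0.11 ± 0.041 (adjusted p = 0.0140 in edgeR, 0.00280 to 0.151 over the alternatives), and did not pass without GFP replicate 1 (adjusted p = 0.102) or without DUX4 replicate 3 (adjusted p = 0.151).

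The fifth subunit gene of the family, REL, belongs to a list of other pathway genes and is given here for comparison. It had 11.3 ± 0.167 CPM (SD, n = 3) with GFP, 29.2 ± 1.81 CPM with DUX4 and 97.2 ± 3.04 CPM with DUXC. Its log2 fold changes of 1.36 ± 0.054 (SE) and 3.10 ± 0.049 were larger than those of the 4 subunit genes above in the same comparisons. REL overlaps PUS10 in RefSeq.

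Among the inhibitors, NFKBIA encodes IkB-alpha, which holds RELA dimers in the cytoplasm and is itself an NF-kB target (chromosome 7, 64508119 to 64510754). It had 22.0, 22.4 and 22.8 CPM in the GFP libraries, 35.2, 36.7 and 37.1 CPM in the DUX4 libraries and 154, 168 and 148 CPM in the DUXC libraries. The groups were far apart relative to their spread, with the DUXC libraries highest. The fold change was 1.62-fold with DUX4 (log2 0.70 ± 0.047 SE) and 6.99-fold with DUXC (log2 2.81 ± 0.043), and the 2 factors differed by 4.31-fold. LOC110261573 overlaps it and had at most 0.236 CPM as a group mean.

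NFKBIE, the gene of the related inhibitor IkB-epsilon (chromosome 7, 39255078 to 39266085), was higher with both factors than with GFP. It had 7.68, 6.73 and 6.88 CPM with GFP, 12.1, 12.8 and 12.0 CPM with DUX4 and 13.0, 13.6 and 12.5 CPM with DUXC. The DUX4 and DUXC libraries overlapped, and all 6 lay above the GFP libraries. Against GFP the log2 fold changes were 0.79 ± 0.075 (SE) and 0.87 ± 0.075. Between the factors the log2 difference was -0.08, with a 95% interval of -0.22 to 0.06 (adjusted p = 0.295 in edgeR). NFKBIE overlaps TMEM151B, which had 9.65 ± 0.670 (SD, n = 3), 7.98 ± 0.430 and 12.7 ± 0.407 CPM in the GFP, DUX4 and DUXC groups. The strand setting of the counting is not given in the sources used here, so reads of the 2 genes may be mixed. TMEM151B fell with DUX4 (log2 -0.27), where NFKBIE rose, and rose with DUXC (log2 0.39).

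TNFAIP3 encodes a ubiquitin-editing enzyme that shuts down signalling from the tumour necrosis factor receptor (chromosome 1, 26474158 to 26489771). Its levels were 10.5, 11.0 and 10.3 CPM with GFP, 30.5, 29.0 and 29.5 CPM with DUX4 and 119, 134 and 122 CPM with DUXC. The groups again followed the order GFP, DUX4, DUXC without overlap. The rise was 2.81-fold with DUX4 (log2 1.49 ± 0.054 SE) and 11.8-fold with DUXC (log2 3.56 ± 0.048). Of the inhibitor genes it had the largest fold change in both comparisons with GFP, and DUXC exceeded DUX4 by 4.22-fold.

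BIRC3 encodes a ubiquitin ligase of the inhibitor-of-apoptosis family that acts in the receptor complex and restrains the alternative pathway (chromosome 9, 33003570 to 33020252). It stood at 191, 198 and 184 CPM with GFP, 176, 160.2 and 164 CPM with DUX4 and 396, 403 and 425 CPM with DUXC. All DUX4 libraries were below all GFP libraries, and all DUXC libraries were above both. The log2 fold change was -0.20 ± 0.035 (SE, adjusted p = 3.58e-06 in edgeR) with DUX4 and 1.10 ± 0.034 with DUXC, a 2.14-fold rise.

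VCAM1, an adhesion molecule that binds integrins of leukocytes and is induced by cytokines on endothelium (chromosome 4, 117496914 to 117511211), showed the same opposite directions on a larger scale. The GFP libraries had 2.42, 3.00 and 2.82 CPM, the DUX4 libraries 2.31, 1.81 and 1.95 CPM and the DUXC libraries 78.1, 85.7 and 83.2 CPM. DUXC thus stood far above the others, and DUX4 just below GFP without overlap. It rose 30.0-fold with DUXC (log2 4.91 ± 0.068 SE) and fell by 0.44 on the log2 scale with DUX4 (SE 0.12, adjusted p = 0.00186 in edgeR), and the direct difference between the factors was 40.7-fold.

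ACOD1 encodes the enzyme that makes itaconate from the citric acid cycle intermediate cis-aconitate and is known from activated macrophages of mouse and human (chromosome 11, 49077152 to 49088218). It had no count in the 3 GFP libraries, 15, 9 and 22 counts in the DUX4 libraries and 766, 791 and 813 counts in the DUXC libraries. As levels these were 0.369, 0.206 and 0.564 CPM with DUX4 and 19.8, 19.4 and 20.7 CPM with DUXC. No count over the GFP libraries allows a level of up to 0.0253 CPM (3 counts over the group, counting error only). Against that floor ACOD1 was at least 14.8-fold higher with DUX4 and at least 789.9-fold higher with DUXC. These bounds take the DUX4 and DUXC levels as measured and leave out their own error, which is larger for the few DUX4 counts. The DUXC libraries exceeded the DUX4 libraries by 53.0-fold (log2 difference -5.73 ± 0.14 SE for DUX4 over DUXC). In a fit of the GFP and DUX4 libraries alone, ACOD1 had too few counts to be tested, so its test with DUX4 rests on a filter that it passed through the DUXC libraries.

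**Figure D2:**
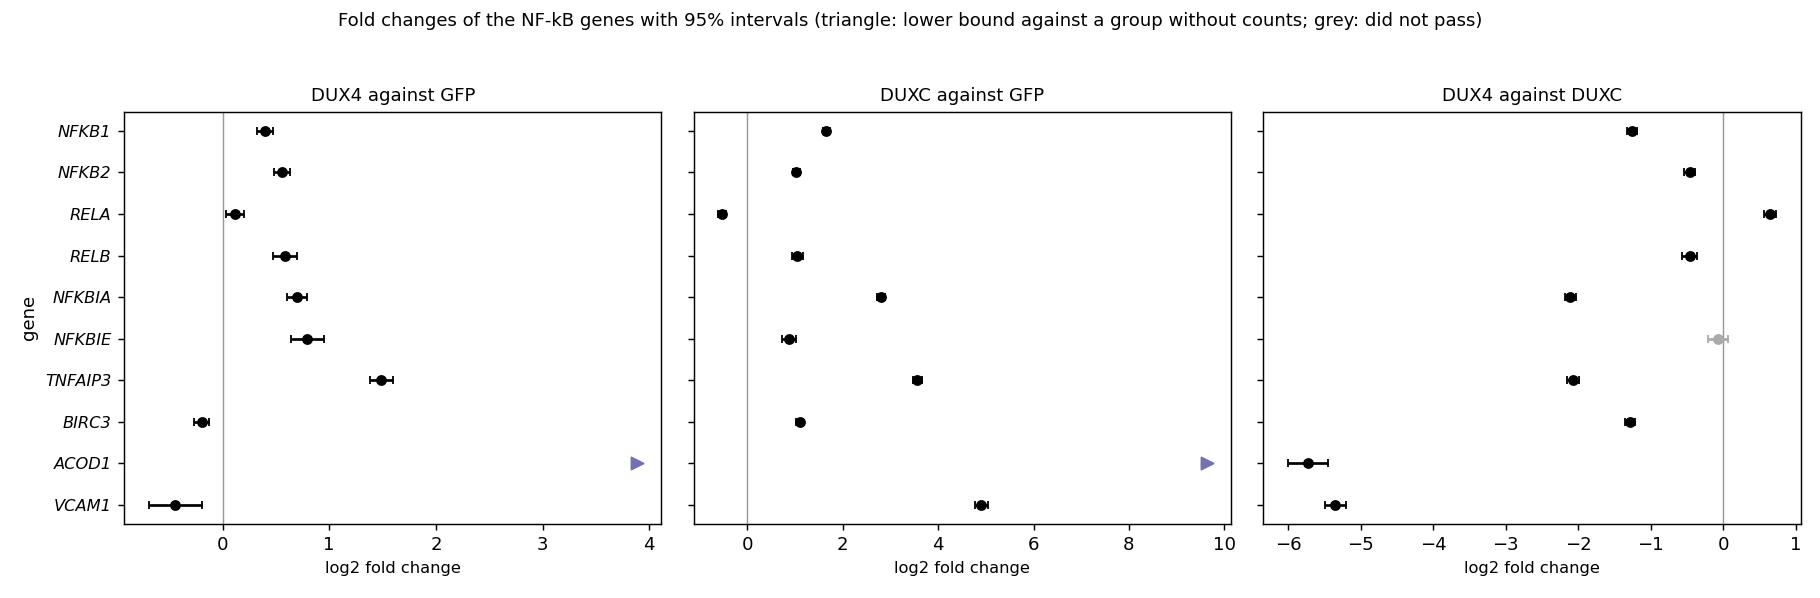
Log2 fold changes (horizontal axes, with a different range in each panel) of the 10 genes in the 3 comparisons, with 95% intervals from edgeR. Triangles mark ACOD1 as a lower bound against the GFP libraries, which had no count. The bounds are 14.8-fold with DUX4 and 789.9-fold with DUXC, with the levels of these 2 groups taken as measured. The grey point is NFKBIE, the only one of the 10 that did not pass between DUX4 and DUXC.

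With edgeR's two-sided test and Benjamini-Hochberg adjustment over all tested genes, adjusted p-values were at most 9.60e-15 for the 10 genes with DUXC against GFP and at most 0.0140 with DUX4 against GFP. In the direct comparison the largest among the 9 that passed was 2.36e-11, for RELB. The order GFP below DUX4 below DUXC, with no overlap between any pair of groups, was found for NFKB1, NFKB2, RELB, NFKBIA, TNFAIP3 and ACOD1, and for 10.9% of all tested genes. RELA and NFKBIE had at least 1 pair of overlapping groups, as did 50.1%. BIRC3 and VCAM1 had the order DUX4 below GFP below DUXC, as did 8.55% of all tested genes. Replicates were close in most of these genes. The coefficient of variation within a group was 1.82% to 7.25% for the 8 genes other than VCAM1 and ACOD1. It was 4.77% to 12.7% for VCAM1, and for ACOD1 it was 3.47% with DUXC and 47.1% with DUX4, where counts were few.

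Ratios of the raw counts of 2 genes within a library do not depend on the scaling between libraries. The pairs were chosen after the values were seen, and the ratios are descriptions with no test. NFKBIA had 0.414 to 0.433 counts per count of RELA in the GFP libraries, 0.615 to 0.672 with DUX4 and 4.18 to 4.48 with DUXC. TNFAIP3 per RELA was 0.187 to 0.211 with GFP, 0.489 to 0.545 with DUX4 and 3.24 to 3.57 with DUXC. In both ratios the inhibitor gained on the activating subunit in every library with a double homeobox factor. Within the subunits, NFKB1 per RELA was 0.840 to 0.949 with GFP, 1.01 to 1.11 with DUX4 and 3.85 to 4.13 with DUXC. The ratio of the alternative pathway's 2 genes, NFKB2 per RELB, was 3.12 ± 0.0522 (SD, n = 3) with GFP, 3.06 ± 0.143 with DUX4 and 3.07 ± 0.174 with DUXC, and all 3 ranges overlapped. NFKBIA per NFKBIE was 2.86 to 3.34 with GFP and 2.87 to 3.08 with DUX4, which overlap, and 11.8 to 12.4 with DUXC. The 2 inhibitor genes thus kept their ratio within the range of the controls with DUX4 and not with DUXC.

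**Figure D3:**
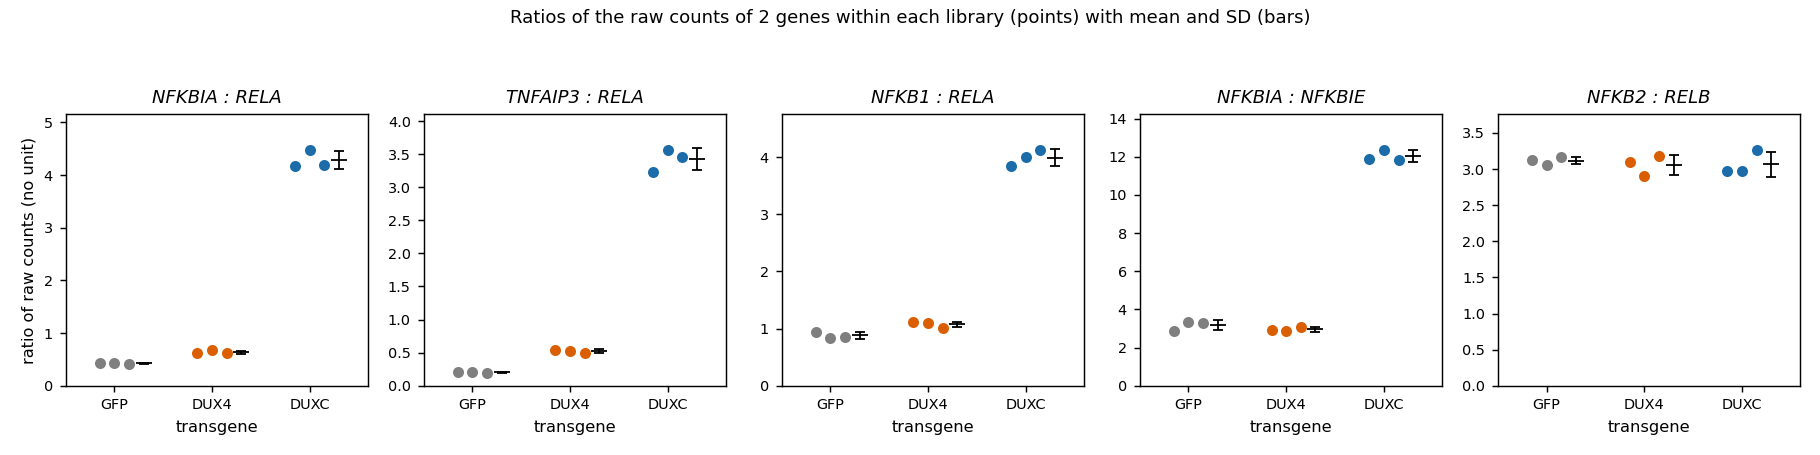
Ratio of the raw counts of 2 genes within each library (vertical axes from 0, no unit), grouped by transgene, with points for libraries and bars for the mean and SD of 3 libraries. NFKBIA, TNFAIP3 and NFKB1 relative to RELA are highest in the DUXC libraries, while NFKB2 relative to RELB overlaps between the 3 groups at 2.90 to 3.27.

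ACOD1 lies within the span of a long non-coding RNA gene, LOC110255830, which had 6, 7 and 62 counts over the GFP, DUX4 and DUXC libraries, where ACOD1 had 0, 46 and 2370. That RNA gene rose with DUXC (log2 3.29 ± 0.51 SE) and did not pass with DUX4 (adjusted p = 0.880 in edgeR). As the strand setting of the counting is not given, reads of ACOD1 and of LOC110255830 may be mixed. The protein-coding gene KCTD12, which lies within the same span, fell with DUXC from 28.0 ± 0.876 CPM (SD, n = 3) to 15.0 ± 0.618 CPM, where ACOD1 rose. With DUX4 KCTD12 also fell (log2 -0.37). The non-coding gene LOC110255831 in that span had 3 counts with DUXC and none elsewhere.

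**Figure D4:**
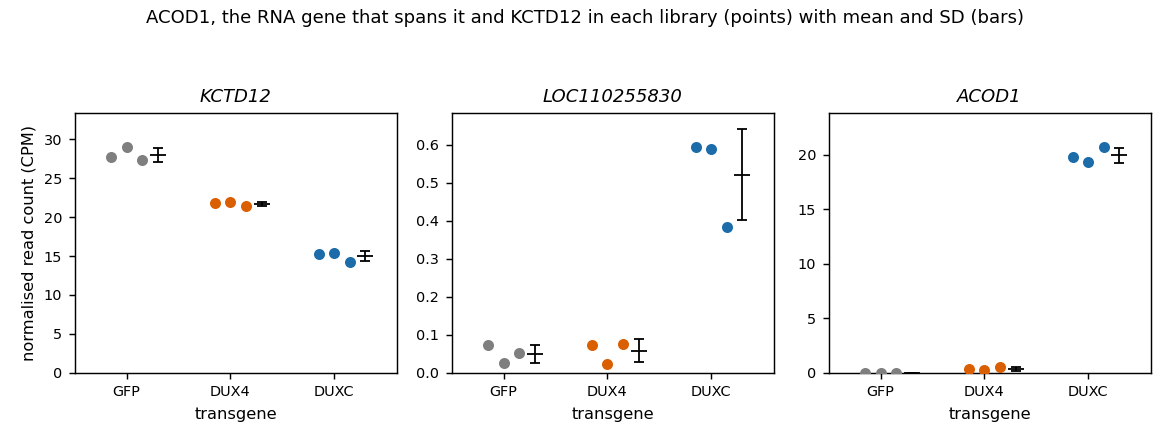
Normalised read counts (CPM, linear axes from 0 with a different range in each panel) of ACOD1, of the non-coding RNA gene LOC110255830 that spans it and of KCTD12 in each library, with the mean and SD of 3 libraries. ACOD1 is near 20 CPM with DUXC and at most 0.564 CPM elsewhere, while KCTD12 is lower with DUXC than with GFP.

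The tested genes most like ACOD1 across the 9 libraries, by the distance between centred log2(CPM + 0.5) values, were LOC110256789, REM2, LHX1, LOC110261353 and CCDC171, at distances of 0.506 to 0.670. REM2 encodes a small GTPase and LHX1 a LIM homeobox factor of the early embryo. LHX1 had 0.0249 ± 0.0245 CPM (SD, n = 3) with GFP, 0.214 ± 0.104 CPM with DUX4 and 15.3 ± 0.238 CPM with DUXC. REM2 had 0.378 ± 0.0835, 0.790 ± 0.115 and 27.4 ± 1.14 CPM in the same order. The 5 genes lie on other chromosomes than ACOD1, and none of them belongs to the NF-kB lists used here.

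Upstream of the subunits, genes of receptors and adaptors moved in both directions. Of 23 receptor and adaptor genes, all tested, 8 were higher and 13 lower with DUXC and 8 higher and 11 lower with DUX4, with medians of -0.28 and -0.11 on the log2 scale. The shares over all tested genes were 40.2% higher and 42.3% lower with DUXC and 32.9% and 31.9% with DUX4. The higher counts of this list were thus near the background, and the lower counts were above it with both factors. TRAF5, an adaptor of the receptor family, fell with both factors, from 15.2 ± 0.622 CPM (SD, n = 3) with GFP to 2.44 ± 0.396 with DUX4 and 2.92 ± 0.279 with DUXC. TNFRSF12A, the receptor for the cytokine TWEAK in muscle, moved in opposite directions. It rose from 94.9 ± 1.99 to 223 ± 9.82 CPM with DUX4 and fell to 49.0 ± 1.83 CPM with DUXC. IL1RAP, the shared subunit of interleukin-1 family receptors, and the kinase gene IRAK1 also rose with DUX4 (log2 0.61 and 0.21) and fell with DUXC (log2 -0.62 and -0.92). TRAF6 and IRAK4, which act below the interleukin-1 and Toll-like receptors, rose with DUXC by 1.16 ± 0.043 and 1.00 ± 0.044 (SE). With DUX4 TRAF6 fell by 0.18, and IRAK4 stood at -0.03 and did not pass. TNFRSF1B, a receptor of tumour necrosis factor, fell by 1.10 with DUX4 and by 0.28 with DUXC.

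Of 18 tested genes for kinases and ubiquitin enzymes, 5 were higher and 7 lower with DUXC and 4 higher and 7 lower with DUX4, and none changed 2-fold or more in either comparison with GFP. With DUXC all tested genes had 40.2% higher, 42.3% lower and 21.3% higher at least 2-fold. With DUX4 these shares were 32.9%, 31.9% and 10.5%, and the shares lower at least 2-fold are not reported here. The kinase subunit gene IKBKB rose by 0.23 ± 0.050 (SE) with DUXC and stood at -0.03 ± 0.051 with DUX4, which did not pass. Of the other subunit genes of that complex, named after their values were seen, IKBKG fell by 0.40 with DUXC and by 0.13 with DUX4 (the latter call lost in DESeq2's test, adjusted p = 0.0526), and CHUK stood at -0.09 with each and did not pass. CUL1, the scaffold of the ligase that destroys IkB proteins, rose with DUXC (log2 0.77) and fell with DUX4 (log2 -0.39), while SKP1 of the same ligase fell with both (log2 -0.59 and -0.17). UBE2N, a ubiquitin-conjugating enzyme, rose with both (0.20 and 0.33), and UBE2V1, its partner, fell with DUXC (-0.53). The adaptor genes TAB2 and TAB3 rose with DUXC by 0.27 and 0.20, and TBK1 rose with DUX4 by 0.24. MAP3K14, which drives the alternative pathway, fell by 0.58 and the kinase gene MAP3K8 by 0.94 with DUX4, and RBCK1, of the linear ubiquitin ligase, fell by 0.57 with DUXC. TAB1 and SHARPIN rose with DUX4 by 0.15 and 0.19, and these calls were lost without GFP replicate 1 (adjusted p = 0.0534 and 0.0965), which left 2 genes higher. With library size as the only scaling, 8 in place of 5 were higher with DUXC.

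Further genes of the REL and IkB families and of feedback moved mostly up with DUXC, in 12 of 17 with 4 lower, the median being 0.71 on the log2 scale. With DUX4 6 rose and 5 fell, with a median of 0.04. Of all tested genes 40.2% were higher and 42.3% lower with DUXC and 32.9% and 31.9% with DUX4, to which the DUX4 counts were close. NFKBIZ, the gene of a nuclear IkB protein, went from 42.6 ± 2.84 CPM (SD, n = 3) with GFP to 58.2 ± 2.51 with DUX4 and 169.7 ± 4.66 with DUXC. NFKBIB, the gene of IkB-beta, rose with both factors (log2 0.91 with DUX4 and 0.87 with DUXC), and the factors did not pass against each other (log2 0.04, adjusted p = 0.548 in edgeR). TRAF1, an adaptor gene that NF-kB induces, rose with DUXC from 1.68 ± 0.205 to 11.0 ± 0.670 CPM and fell with DUX4 to 1.01 ± 0.215 CPM, as VCAM1 did. TRAFD1 and OTUD7B, both of negative feedback, also rose with DUXC (log2 0.86 and 0.71) and fell with DUX4 (log2 -0.29 and -0.16). TNIP1, which binds TNFAIP3, rose with both, by 0.70 with DUX4 and 0.37 with DUXC. Another partner of TNFAIP3, TAX1BP1, fell with both, by 0.56 and 0.66, as did the deubiquitinase gene OTULIN, by 0.27 and 0.45. BCL3 fell with DUXC by 0.34, a call lost with library size as the only scaling. IRAK3 passed at -0.11 but kept that call in 7 of 17 alternatives (log2 -0.15 to 0.018, adjusted p up to 0.745), so its direction with DUXC is unsettled. With library size alone 2 of the 4 were lower.

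The other inducible targets of NF-kB were mostly higher with DUXC. Of 45 targets found 37 were tested, 29 of them higher and 5 lower, with a median of 1.64 on the log2 scale, and 22 were higher at least 2-fold, where all tested genes had 40.2% higher, 42.3% lower and 21.3% higher at least 2-fold. A target scarce in the controls could enter the test only through a group where it was high. With DUX4 18 were higher and 7 lower, with a median of 0.31, and between the factors 26 were lower with DUX4 and 8 higher. The shares over all tested genes were 32.9% higher and 31.9% lower with DUX4, and 41.6% lower and 40.8% higher between the factors. The interleukin gene IL1A rose with both, from 11.8 ± 0.650 CPM (SD, n = 3) to 95.3 ± 4.44 with DUX4 and 127 ± 5.47 with DUXC. IL6 rose from 12.9 ± 0.748 to 26.9 ± 1.58 and 156 ± 9.28 CPM, and CD83 from 8.73 ± 0.427 to 27.8 ± 0.238 and 76.2 ± 2.56 CPM. The chemokine gene CCL20 stood at 0.0672 ± 0.0388 CPM in the controls, at 3.64 ± 0.444 CPM with DUX4 and at 52.9 ± 2.19 CPM with DUXC. TNF, itself both a target and an activator of NF-kB, had 2 counts over the GFP libraries, 7 over the DUX4 libraries and 1350 over the DUXC libraries. It was higher with DUXC than with GFP by a ratio of 675 (186 to 5579, 95% counting interval), and with DUX4 did not pass (adjusted p = 0.163 in edgeR). All 5 of these genes were higher with DUXC than with DUX4, IL1A by the least (log2 difference -0.42 ± 0.037 SE for DUX4 over DUXC).

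A few targets were not called higher with DUXC than with GFP. IER3, an early response gene, rose with DUX4 from 50.1 ± 1.22 to 162 ± 1.79 CPM and stood at 52.6 ± 3.36 CPM with DUXC, which did not pass against GFP (adjusted p = 0.0872 in edgeR). That missing call held in 11 of 17 alternatives, and in the others IER3 passed as higher with DUXC (log2 up to 0.20, adjusted p down to 1.81e-05). PTGES, an enzyme of prostaglandin synthesis, and PLAUR, the urokinase receptor gene, rose with DUX4 (log2 0.79 and 0.70) and fell with DUXC (log2 -0.26 and -0.11). The survival gene BCL2L1 fell with DUXC by 0.79, and PLAU, the urokinase gene, fell by 0.25 with DUXC and by 0.23 with DUX4. GADD45B fell by 0.17 with DUXC. REL, CUL1, UBE2N, UBE2V1, TAB1, OTULIN, BCL2L1, PLAU and PLAUR overlap another gene in RefSeq, so their counts may be mixed. With DESeq2's size factors, library size alone or DESeq2's test the calls of PLAUR and GADD45B with DUXC were lost, which left 3 lower targets in place of 5. PLAUR kept its call in 12 of 17 alternatives (log2 -0.15 to 0.017, adjusted p up to 0.662), so its direction with DUXC is unsettled.

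**Figure D5:**
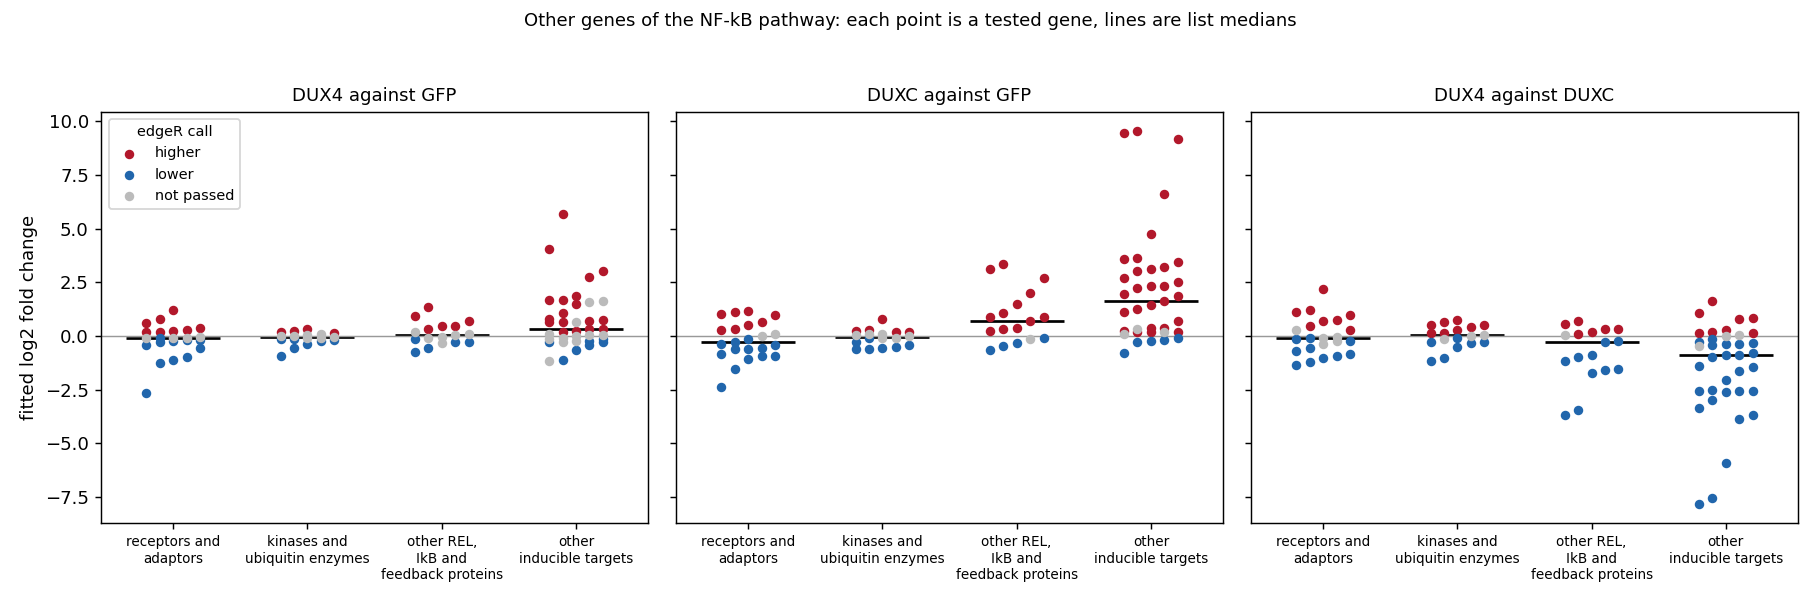
Fitted log2 fold changes (vertical axis) of the tested genes of 4 lists of other NF-kB pathway genes in the 3 comparisons, with 1 point for each gene, coloured by its call in edgeR, and a line at the median of the list. The medians of receptors and kinases lie near 0, while that of the other inducible targets is 1.64 with DUXC and 0.31 with DUX4. Values above 6 belong to genes with at most 8 counts over the GFP libraries.

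Markers of other cell types were read in the same libraries, since ACOD1 is best known from macrophages and VCAM1 from endothelium. Of 12 monocyte and macrophage markers PTPRC, which all leukocytes express, had no count with GFP or DUX4 and 16 counts over the DUXC libraries, and CD163 had 0, 1 and 14. The summed level of the 12 was 16.9 to 19.7 CPM with GFP, 14.5 to 16.4 CPM with DUX4 and 23.1 to 25.3 CPM with DUXC. With DUXC 4 of 7 tested markers were higher (CD14, CD68, LYZ and MRC1) and 2 were lower (CSF1R and ITGAM), and with DUX4 2 were higher (CD68 and SPI1) and the same 2 lower. The shares over all tested genes were 40.2% higher and 42.3% lower with DUXC and 32.9% and 31.9% with DUX4. The 8 lymphocyte markers summed to at most 1.46 CPM in any library. The 8 endothelial markers summed to 78.7 to 82.5 CPM with GFP, 124 to 132 CPM with DUX4 and 85.5 to 89.2 CPM with DUXC, and the defining marker CDH5 had 0, 2 and 11 counts over the groups. That sum was mostly ERG (53.3 ± 1.54 CPM with GFP). Of 6 tested endothelial markers 3 were higher with DUXC, as VCAM1 was (PECAM1, KDR and TEK), and 3 were lower (FLT1, EMCN and ERG). These counts were close to the 40.2% higher and 42.3% lower over all tested genes. PECAM1 went from 6.16 ± 0.525 CPM with GFP to 9.38 ± 0.306 with DUX4 and 24.7 ± 1.27 with DUXC, and TEK from 0.142 ± 0.0602 to 0.146 ± 0.0668 and 2.83 ± 0.176 CPM. KDR had 2, 95 and 49 counts and VWF 1, 1 and 38 counts over the groups. With DUX4 PECAM1, KDR, FLT1 and ERG were higher, EMCN was lower and TEK did not pass. Of all tested genes 32.9% were higher and 31.9% lower with DUX4.

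The 8 myogenic markers summed to 90.6 to 99.4 CPM with GFP, 109 to 112 CPM with DUX4 and 59.1 to 61.5 CPM with DUXC, and most of this was NCAM1 (86.4 ± 4.25 CPM with GFP, SD, n = 3). DES stood at 7.15 ± 0.326 CPM with GFP and fell with DUX4 (log2 -1.76) and DUXC (log2 -2.74). MYF5, at 0.705 CPM with GFP, rose with both (log2 1.61 and 1.33). NCAM1 rose with DUX4 (log2 0.29) and fell with DUXC (log2 -0.63), and PAX7 rose with DUXC (log2 1.47). Of the 4 tested, 2 were higher and 1 lower with DUX4, against 32.9% and 31.9% of all tested genes. With DUXC 2 were higher and 2 lower, against 40.2% and 42.3%. MYOD1 had 1, 9 and 4 counts over the groups and PAX7 stood at 0.402 ± 0.0974 CPM with GFP. These 2 markers of the labelled cell type were thus scarce, as was MYF5. The 8 fibroblast and matrix markers summed to 62435 to 66651 CPM with GFP, 38482 to 43157 CPM with DUX4 and 37325 to 38181 CPM with DUXC. All 8 were lower with DUX4, and 7 were lower with DUXC, where PDGFRA was higher. Of all tested genes 31.9% were lower with DUX4, and 42.3% were lower and 40.2% higher with DUXC. In bulk RNA, fewer cells of a type and less RNA per cell cannot be told apart, and the part of cell composition in the levels above was not tested.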

How the data were processed

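Libraries were made with a stranded mRNA kit, per the labels' protocols. The submitters' processing notes name CASAVA 1.9, Trim Galore, featureCounts and the build Sscrofa11.1, and the file headers name Subread. No source used here gives the annotation release or strand setting. The authors deposited 1 table of unnormalised whole-number counts. Genes were filtered with filterByExpr by group (15956 of 27339 kept), scaled with TMM factors (0.960 to 1.06) and tested in edgeR 4.0.16 (R 4.3.3) by the quasi-likelihood F test with robust estimation, all 9 libraries fitted together, two-sided, with Benjamini-Hochberg adjustment over all tested genes and a threshold of 0.05. Standard errors are the log2 fold change over the square root of F. The pipeline was tested on simulated data in which far fewer genes changed than here and every gene had the same spread setting. Libraries of a group differed beyond sampling noise, and most in the DUX4 group. The chi-square per degree of freedom was 2.62 to 3.67 between GFP libraries, 6.83 to 17.9 between DUX4 libraries and 3.19 to 4.39 between DUXC libraries. The 3 groups shared 1 estimate of the spread, so the errors given for small changes with DUX4 may be too small. With 3 against 3 an exact permutation test cannot go below 0.1, and none was used.

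The 10 genes, the pathway and marker lists and the tests were chosen with earlier results of these data known. Named from the lists are, per comparison, up to 4 genes that passed with the smallest p and any where 5 or fewer moved one way. Positions and overlaps come from RefSeq for Sscrofa11.1. BIRC2, RNF31 and IL32 were not analysed here, and some genes near ACOD1 are not reported here. Alternatives used DESeq2 1.42.0 and limma 3.58.1.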

Additional observations from a re-analysis of the deposited data

How the results depend on the processing

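The 10 genes kept their direction in all 3 comparisons under each of 17 alternatives that gave a value. With DUX4 and GFP alone ACOD1 gave none. Calls changed for RELA and NFKBIE. Leaving out 1 library at a time gave RELA 0.073 to 0.15 (log2) with DUX4 against GFP, not passing without GFP replicate 1 or DUX4 replicate 3. With library size as the only scaling NFKBIE passed between DUX4 and DUXC at -0.18 (adjusted p = 0.0160), and the median of all genes moved from -0.03 to 0.09 with DUXC against GFP and from -0.01 to -0.11 between the factors. The cause was not tested. Replicate numbers did not pair the libraries (correlations of deviations -0.0567 to 0.0749), and with the replicate block RELA with DUX4 stayed at 0.11 (adjusted p = 0.0155) and no call of the 10 changed.

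Counts over the lists moved by over 1.5 times in 5 cases. Kinases higher with DUX4 went from 4 to 2 without GFP replicate 1. With library size alone kinases higher with DUXC went from 5 to 8, feedback genes lower with DUXC from 4 to 2, and targets higher with DUX4 than DUXC from 8 to 5. Targets lower with DUXC went from 5 to 3 with DESeq2 size factors, library size alone and DESeq2's test.

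Reversed signs were found only for other genes, near 0 or at few counts. With DUX4 against GFP, DESeq2 size factors, library size alone and DESeq2's test gave 0.0080, 0.0066 and 0.0080 for UBE2V1, 0.018, 0.017 and 0.018 for TAB2, and 0.017, 0.016 and 0.017 for GADD45B. Fitting only the 2 groups gave 0.0024 for TAB2 and 0.0014 for GADD45B. With library size alone MAP3K14, IRAK3 and PLAUR with DUXC were at 0.036, 0.018 and 0.017, and TAX1BP1 between the factors at -0.0058. Between the factors NFKBIB and PLAU were at -0.013 and -0.031 with DESeq2 size factors, -0.061 and -0.079 with library size alone, -0.014 and -0.031 with a minimum of 1 CPM, and -0.013 and -0.031 with DESeq2's test. Leaving out 1 library gave, with DUX4, -0.073 to 0.011 for IRAK4, -0.041 to 0.0056 for UBE2V1, -0.034 to 0.026 for TAB2, -0.074 to 0.0022 for IKBKB, -0.051 to 0.014 for GADD45B, -0.13 to 0.55 for LOC110255830, -0.36 to 0.45 for LOC106506113 and -0.50 to 0.034 for NLRC5. It gave -0.062 to 0.20 for MAP3K8 with DUXC, and between the factors -0.036 to 0.12 for NFKBIB and -0.0088 to 0.079 for PLAU. CHUK was at 0.038 with DUXC under library size alone, and between the factors at 0.040 without a filter and at -0.012 to 0.019 with 1 library left out. Depth limits ACOD1 in the DUX4 libraries, which rests on 46 counts.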

Other observations

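From the lists of feedback genes and inducible targets, 5 genes outside the naming rule were chosen after their values were seen. They rose with DUXC and did not pass or fell with DUX4. Other list genes did so too, such as CX3CL1 (log2 1.45 with DUXC and -1.13 with DUX4) and ZC3H12A (log2 1.08 with DUXC, not passing with DUX4). Neither the number of such genes nor their share of all tested genes was counted. The chemokine gene CXCL10 had 5 counts over the GFP libraries and 17 over the DUX4 libraries. With DUXC it had 23.5, 42.4 and 30.2 CPM. With DUX4 CXCL10 did not pass (log2 1.64, adjusted p = 0.558 in edgeR), but its interval of -3.79 to 7.08 was too wide to exclude a rise. Every DUX4 library lay above every GFP library, at 0.0918 to 0.172 CPM against 0.0257 to 0.0734 CPM. The missing call held in 13 of 16 alternatives that gave a value (adjusted p down to 0.0322). SOD2, the mitochondrial superoxide dismutase gene, rose from 54.3 ± 1.86 CPM (SD, n = 3) to 269 ± 23.2 CPM with DUXC and fell to 44.3 ± 1.16 CPM with DUX4. NLRC5, an activator of major histocompatibility class I genes, rose with DUXC from 0.499 ± 0.192 to 5.08 ± 0.802 CPM, and with DUX4 had 0.397 ± 0.132 CPM and did not pass (adjusted p = 0.392 in edgeR). CXCL2 went from 9.42 ± 1.44 to 87.8 ± 4.57 CPM with DUXC and had 8.54 ± 0.887 CPM with DUX4 (adjusted p = 0.230 in edgeR). NFKBID, the gene of another nuclear IkB protein, rose from 7.37 ± 0.492 to 20.8 ± 0.888 CPM with DUXC and had 6.87 ± 0.328 CPM with DUX4 (adjusted p = 0.269). In the direct comparison the 5 chosen genes were lower with DUX4 than with DUXC, with log2 differences of -1.60 to -7.83. The way they were chosen favoured this outcome, and 41.6% of all tested genes were lower there.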
